A study of Mus musculus with 8 samples.

Results

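The 10 genes described here mark the cells of the liver other than hepatocytes: Stab2, Stab1, Kdr and Pecam1 mark endothelial cells, Clec4f, Lyz2 and Cd74 mark Kupffer cells and other macrophages, and Dcn, Reln and Lrat mark stellate cells. They were chosen by name as known markers, with earlier results of these data known, and all 10 were found among the 21883 protein-coding genes of the mouse gene table. The signal is the number of paired-end tag (PET) ends over each gene and 2.5 kb either side of it (GRCm38/mm10). A PET records 2 pieces of chromatin that were ligated together after immunoprecipitation of RNA polymerase II, a method called ChIA-PET, so each PET has 2 mapped ends.

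Nonparenchymal cells line and fill the sinusoids between the plates of hepatocytes. Sinusoidal endothelial cells clear waste macromolecules from the blood through scavenger receptors, Kupffer cells are the resident macrophages, and stellate cells store vitamin A as retinyl esters and lay down matrix after injury. RNA polymerase II travels along the genes in use and gathers at the start of many of them, and in chromatin of whole liver its signal over a marker gene sums over all cells present. Fewer cells of a type and less signal per cell cannot be told apart in such chromatin.

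All libraries were made from livers of wild-type C57BL/6 mice aged 3 to 6 months, kept in an even light-dark cycle with free access to food, and collected at ZT06 (day) or ZT18 (night). Chromatin of several livers was pooled for each immunoprecipitation with the polymerase antibody 8WG16. Experiments 1 (JM08) and 3 (JM12) used EGS with formaldehyde as crosslinkers and experiment 2 (JM11) used formaldehyde alone, and the labels list 8 libraries, 4 in experiment 1 (2 per time point) and 2 in each of experiments 2 and 3 (1 per time point). The deposited table names the experiment of each PET but not its library or time point, so day and night were not compared and no spread between replicates could be computed. Intervals are 95% exact Poisson intervals, or exact binomial ones for ratios between experiments, and cover counting error only. The experiments held 474478, 1438866 and 840210 PETs, which gave 0.379, 1.15 and 0.669 ends per kb averaged over the nuclear genome. A gene's relative density is its number of ends divided by the number expected at that mean, and over all protein-coding genes its median was 1.12, 1.10 and 1.30 in experiments 1, 2 and 3. The share of PETs whose ends lay within 8 kb of each other was 22.5%, 6.23% and 14.8%, and most PETs joined different chromosomes.

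The 10 marker genes carried little polymerase signal above the genome mean. Over the 10, relative density had medians of 0.843, 1.16 and 1.40 in experiments 1, 2 and 3. A list of 21 hepatocyte genes was measured the same way in the same chromatin, and was chosen with earlier results of these data known. Its medians were 40.3, 4.35 and 8.54, which were 47.8, 3.75 and 6.11 times those of the marker genes. In a two-sided exact Poisson test with Benjamini-Hochberg adjustment over all protein-coding genes, 0 of the 10 marker genes were called above the mean in experiment 1, where 26.9% of all genes were called higher and 5.99% lower. In experiment 2, 1 of 10 was called (Reln), against 16.6% of all genes called higher and 11.9% lower. In experiment 3, 5 of 10 were called (Stab2, Stab1, Kdr, Pecam1 and Cd74), against 36.7% of all genes called higher and 9.11% lower. No marker gene was called below the mean in a single experiment. Lyz2 could not have been called below it in experiment 1, where the lowest possible count, 0, gave an adjusted p of 0.1283 in that exact Poisson test. At an unadjusted p under 0.05, 2 of the 10 were higher and 0 lower in experiment 1, against 30.4% and 8.72% of all genes. At that threshold 1 was higher and 0 lower in experiment 2, against 22.9% and 14.0%, and 5 were higher and 0 lower in experiment 3, against 40.9% and 12.6%.

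With the 3 experiments added together, Kdr, Stab1, Pecam1 and Reln were called higher and Lyz2 lower, against 43.3% of all genes called higher and 14.9% lower. The order of the summed densities was Cd74 (1.39), Kdr (1.36), Stab1 (1.35), Lrat (1.31), Clec4f (1.21), Pecam1 (1.21), Dcn (1.18), Reln (1.15), Stab2 (1.10) and Lyz2 (0.468). Each of the first 9 had an interval that overlapped its neighbour's, while the interval of Lyz2 (0.224 to 0.861) lay below that of Stab2 (0.997 to 1.21). Among the 200 protein-coding genes nearest in length to each, the 10 marker genes had median percentiles of 31.5, 65.0 and 58.5 in the 3 experiments. On average 26.0%, 21.35% and 39.45% of those length neighbours were called higher in experiments 1, 2 and 3. Relative to the mean over protein-coding gene windows, which is higher than the nuclear mean, 0 of the 10 were called higher with the experiments together, against 24.6% of all genes. By that reference 2 were called higher in experiment 3, against 21.5%, and 3 lower in experiment 1, against 16.5%. The counts therefore depend on the density taken as the reference.

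**Figure D1:**
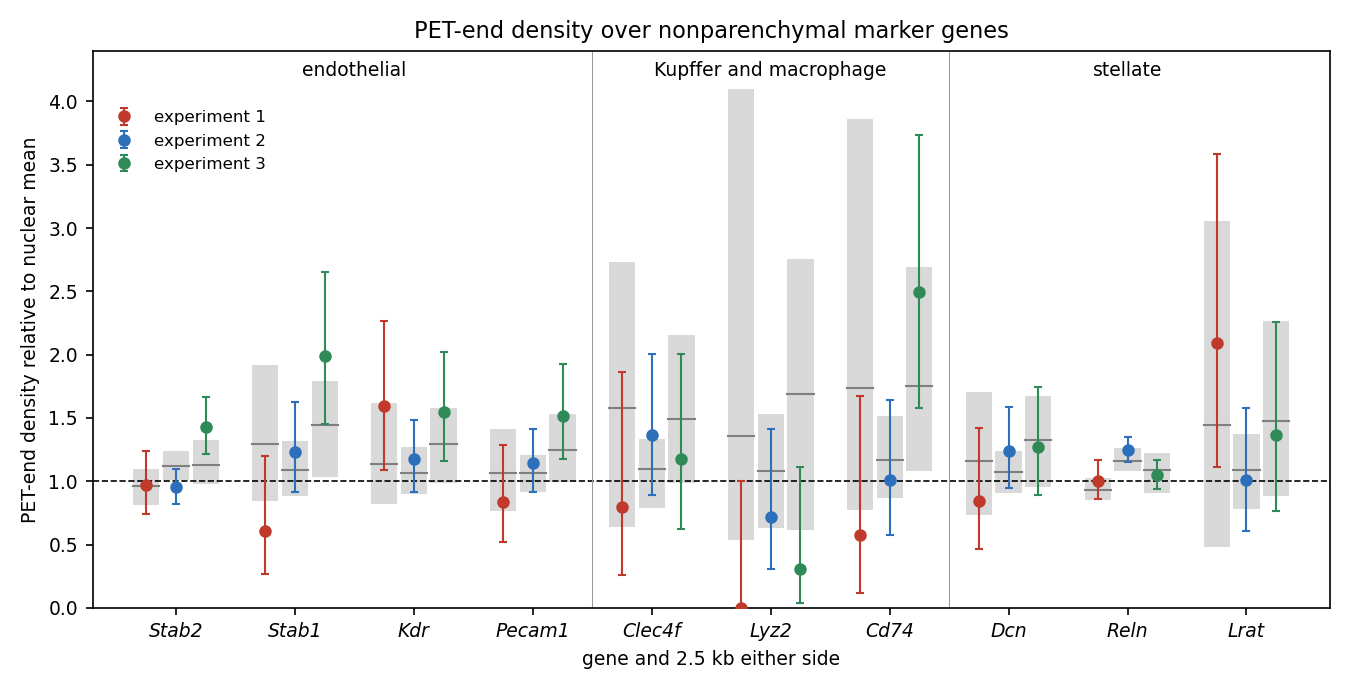
Relative density of PET ends over the 10 marker genes by experiment, as points with 95% exact Poisson intervals, over grey boxes and lines for the quartiles and median of the 200 protein-coding genes nearest in length; the dashed line is the nuclear mean. Most points sit within or near the quartiles of their length neighbours, and Lyz2, with 0 ends in experiment 1, is the lowest of the 10 in each experiment.

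All 4 endothelial markers were called above the mean in experiment 3, with relative densities of 1.43 to 1.99, and 0 of 4 were called in experiments 1 and 2. With PETs of the first linker alone, 0 of the 4 were called in experiment 3 (adjusted p = 0.06787 for Stab2, 0.1665 for Stab1, 0.09652 for Kdr and 0.6319 for Pecam1, exact Poisson test), where 23.6% of all genes were. With the second linker alone, Stab2 (1.51), Stab1 (2.31) and Pecam1 (1.81) were called in experiment 3. Their adjusted p was 0.00184, 0.001034 and 0.003424 (exact Poisson test), and Kdr (1.50, adjusted p = 0.1436) was not called in experiment 3. The share of all genes called with the second linker in experiment 3 is not given here. Against the mean of protein-coding windows Stab2 (1.14), Kdr (1.24) and Pecam1 (1.21) were not called there, and with PETs within 8 kb left out Kdr (1.47, adjusted p = 0.05282) and Pecam1 (1.41, adjusted p = 0.05569) were not, by the same exact test. Stab2 encodes a scavenger receptor of sinusoidal endothelium that takes up hyaluronan (chromosome 10, 86841194 to 87008038). It held 63, 188 and 164 ends in experiments 1, 2 and 3, or relative densities of 0.968 (0.744 to 1.24), 0.953 (0.821 to 1.10) and 1.43 (1.22 to 1.66). The value in experiment 3 was above the mean (adjusted p = 0.0001014, exact Poisson test) and at percentile 87.0 of genes of similar length, while in experiment 2 Stab2 was at percentile 18.5. Its paralog Stab1 is a scavenger receptor of the same cells and of some macrophages (chromosome 14, 31139017 to 31168651). Stab1 held 8, 49 and 46 ends, or relative densities of 0.610 (0.263 to 1.20), 1.23 (0.911 to 1.63) and 1.99 (1.45 to 2.65), the last above the mean (adjusted p = 0.0001806, exact Poisson test). Parts of Nt5dc2 and Nisch lie in the Stab1 window. Without the bases within 2.5 kb of those genes the relative densities were 0.296 (0.0610 to 0.864), 1.20 and 2.18, and the value in experiment 3 was above the mean by either count (adjusted p = 0.0001138 without those bases, exact Poisson test). The 0.296 of experiment 1 rested on 3 ends and was not called (adjusted p = 0.05553, exact Poisson test).

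Kdr encodes the main signalling receptor for VEGF on endothelium (chromosome 5, 75932827 to 75979072). It held 31, 69 and 53 ends, or relative densities of 1.60 (1.09 to 2.27), 1.17 (0.912 to 1.48) and 1.55 (1.16 to 2.02). Kdr was the endothelial marker with the highest density in experiment 1 (adjusted p = 0.05531, exact Poisson test), and it was called in experiment 3 (adjusted p = 0.01021). Pecam1 encodes an adhesion molecule of endothelial junctions (chromosome 11, 106654213 to 106715281). It held 21, 87 and 67 ends, or relative densities of 0.839 (0.520 to 1.28), 1.15 (0.918 to 1.41) and 1.52 (1.18 to 1.93), and was called in experiment 3 (adjusted p = 0.005206, exact Poisson test). Of the length neighbours of these 4 genes, 21.25%, 20.5% and 38.75% were called higher on average in experiments 1, 2 and 3. Without experiment 3 the summed density of Stab1 was 1.08 (adjusted p = 0.7318) and that of Pecam1 was 1.07 (adjusted p = 0.6395), both by the exact Poisson test, so both summed calls rested on that experiment. Pecam1 was also not called without experiment 2 (1.27, adjusted p = 0.05983, exact Poisson test).

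The macrophage markers were low or thinly covered. Clec4f encodes a C-type lectin found on Kupffer cells (chromosome 6, 83644542 to 83656116). It held 5, 26 and 13 ends, or relative densities of 0.797 (0.259 to 1.86), 1.37 (0.892 to 2.00) and 1.17 (0.624 to 2.01), and was not called in any experiment. Lyz2 encodes lysozyme of macrophages and other myeloid cells (chromosome 10, 117277541 to 117282272). It held 0, 8 and 2 ends, where 3.69, 11.2 and 6.51 were expected. The count of 0 in experiment 1 had an interval of 0 to 1.00 and was not called (adjusted p = 0.1283, exact Poisson test), and the one-sided limit of 3 counts was a relative density of 0.814. The values in experiments 2 and 3 were 0.716 (0.309 to 1.41) and 0.307 (0.0372 to 1.11). The summed call of Lyz2 below the mean (adjusted p = 0.01938, exact Poisson test) was lost without experiment 1 (0.565, adjusted p = 0.1174) or without experiment 3 (0.538, adjusted p = 0.1504). Lyz2 has a near-identical neighbour, Lyz1, with 3, 4 and 11 ends and a summed relative density of 0.814 (0.482 to 1.29). Whether tags were split or dropped between these copies was not tested, so the Lyz2 value is uncertain.

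Cd74 encodes the invariant chain of MHC class II, used by macrophages, dendritic cells and B cells (chromosome 18, 60803849 to 60812652). It held 3, 16 and 23 ends, or relative densities of 0.574 (0.118 to 1.68), 1.01 (0.577 to 1.64) and 2.49 (1.58 to 3.74). The value in experiment 3 was the highest of any marker there (adjusted p = 0.0007818, exact Poisson test), and at percentile 71.0 of genes of similar length. Without the bases near Tcof1, which reaches into its window, the relative densities were 0.534, 0.793 and 3.02. Of the 23 ends in experiment 3, 10 belonged to 5 PETs with ends within 8 kb of each other, a kind of PET that experiments 1 and 2 did not show over Cd74. With those PETs left out the value was 1.65 (adjusted p = 0.2091, exact Poisson test).

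The stellate markers lay mostly near the mean. Dcn encodes the small matrix proteoglycan decorin (chromosome 10, 97479500 to 97518163). It held 14, 62 and 37 ends, or relative densities of 0.847 (0.463 to 1.42), 1.24 (0.948 to 1.59) and 1.27 (0.892 to 1.75), none of them called. Reln encodes the secreted glycoprotein reelin and is the longest of the 10 genes (chromosome 5, 21884454 to 22344705). Its 177, 667 and 327 ends gave the tightest intervals, with relative densities of 1.01 (0.862 to 1.16), 1.25 (1.16 to 1.35) and 1.05 (0.940 to 1.17). The call in experiment 2 (adjusted p = 5.78e-07, exact Poisson test) was small in size, at percentile 70.5 of genes of similar length, 67.0% of which were called too. The summed call of Reln was lost without experiment 2 (1.03, adjusted p = 0.5773, exact Poisson test), and relative to the mean of protein-coding windows Reln lay below 1 in experiments 1 and 3 (0.767 and 0.841). Lrat encodes the enzyme that esterifies retinol for storage (chromosome 3, 82892582 to 82903974). It held 13, 19 and 15 ends, or relative densities of 2.09 (1.12 to 3.58), 1.01 (0.608 to 1.58) and 1.37 (0.766 to 2.26), and was not called in any experiment (adjusted p = 0.06662 in experiment 1, exact Poisson test).

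Within the marker genes, signal gathered at the start of some and not of others. A start site could be placed for 7 of the 10, from RefSeq promoter entries for GRCm38.p6, and Pecam1, Cd74 and Dcn had none. The Kdr start used (75978455) lay inside the annotated gene, whose upstream boundary was at 75979072. Within 2.5 kb of the start, experiments together, the relative density was 3.01 (2.07 to 4.22) at Reln, 2.73 (1.84 to 3.90) at Kdr and 2.09 (1.33 to 3.14) at Lrat. It was 1.37 (0.765 to 2.25) at Stab1, 1.18 (0.630 to 2.02) at Clec4f, 0.911 (0.437 to 1.68) at Stab2 and 0.729 (0.315 to 1.44) at Lyz2. Only the first 3 of these intervals lay above 1. Within 1 kb the same 3 genes led, with 23 ends at Reln, a relative density of 5.23 (3.32 to 7.85), 17 at Lrat, 3.87 (2.25 to 6.19), and 16 at Kdr, 3.64 (2.08 to 5.91). Each experiment contributed: Reln had 7, 7 and 9 ends within 1 kb, Lrat had 7, 6 and 4, and Kdr had 5, 4 and 7. Clec4f had 10 ends within 1 kb, a relative density of 2.28 (1.09 to 4.19), of which 0, 7 and 3 came from experiments 1, 2 and 3. Stab1 had 6, Stab2 had 5 and Lyz2 had 3.

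Outside the start window the density lay closer to the mean, with a relative density of 1.13 (1.06 to 1.19) over the rest of Reln, 1.21 (1.01 to 1.45) over Kdr and 0.959 (0.615 to 1.43) over Lrat. The kilobase with the most ends in each of these 3 genes was at the start, centred 0.28 kb upstream in Reln (20 ends) and 0.35 kb and 0.34 kb downstream in Kdr (14 ends) and Lrat (12 ends), where 2.20 were expected. In Stab2 the densest kilobase held 11 ends and lay 137.4 kb into the gene.

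**Figure D2:**
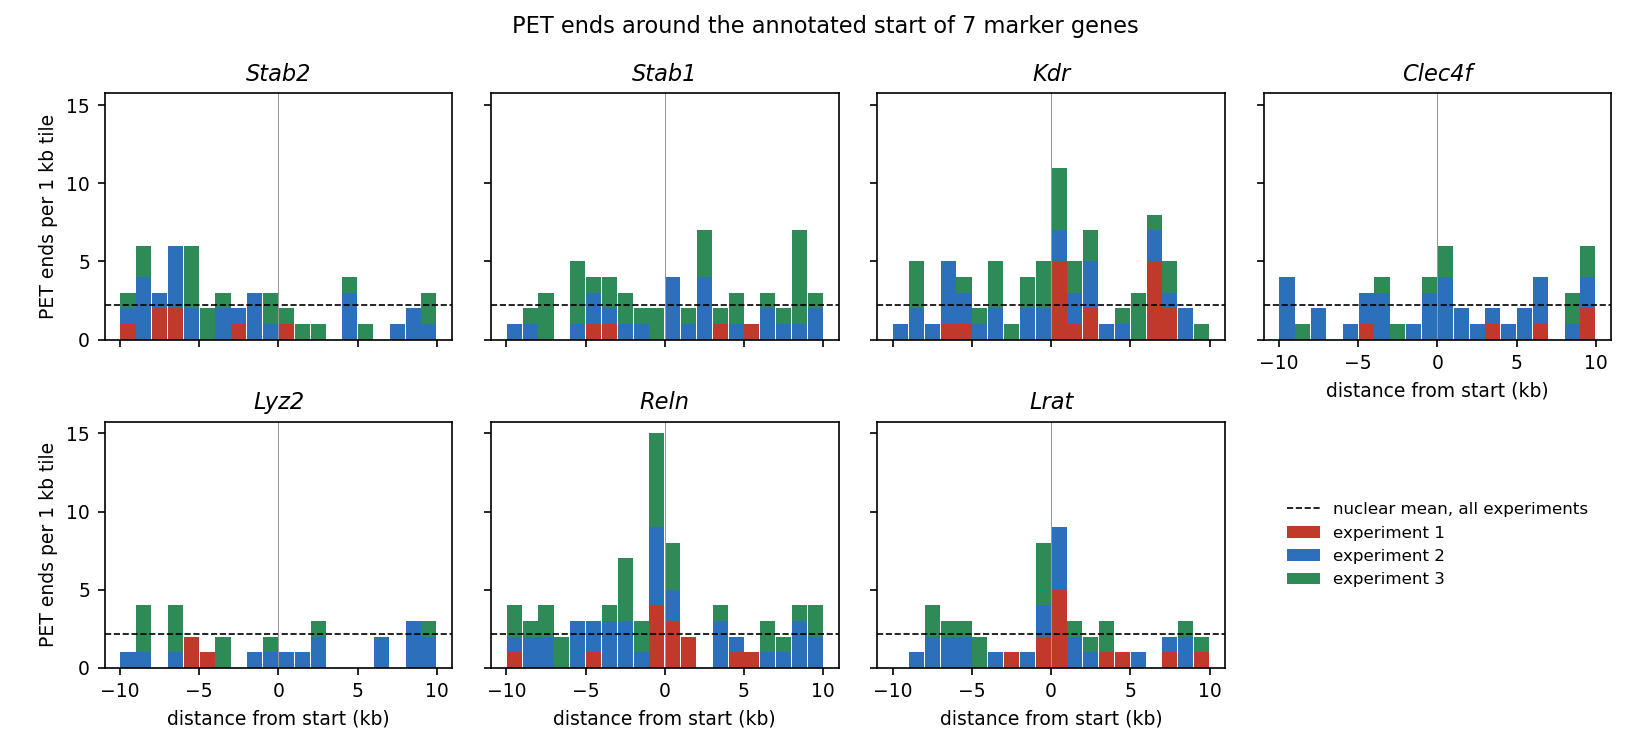
Number of PET ends per 1 kb tile against the distance from the annotated start, in 7 marker genes, with the experiments stacked by colour and a dashed line at the number expected from the nuclear mean of all experiments (2.20). In Reln, Lrat and Kdr the tallest tile adjoins the start, while Stab2, Stab1 and Lyz2 show no such peak.

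The promoter sequences of these genes differ in CpG content, and 5 of them are printed to show that contrast. Each is the 250 bases upstream of the start, 5′ to 3′ on the minus strand, from RefSeq (GRCm38.p6), with every CpG dinucleotide in capitals. The first 3 belong to the genes whose interval lay above 1 within 2.5 kb of the start.
Reln: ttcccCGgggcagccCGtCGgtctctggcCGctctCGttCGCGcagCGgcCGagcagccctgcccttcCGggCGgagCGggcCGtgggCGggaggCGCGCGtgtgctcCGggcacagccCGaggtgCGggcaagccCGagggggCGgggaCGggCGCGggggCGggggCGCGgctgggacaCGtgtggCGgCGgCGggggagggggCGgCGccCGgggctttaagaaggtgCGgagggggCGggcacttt
Lrat: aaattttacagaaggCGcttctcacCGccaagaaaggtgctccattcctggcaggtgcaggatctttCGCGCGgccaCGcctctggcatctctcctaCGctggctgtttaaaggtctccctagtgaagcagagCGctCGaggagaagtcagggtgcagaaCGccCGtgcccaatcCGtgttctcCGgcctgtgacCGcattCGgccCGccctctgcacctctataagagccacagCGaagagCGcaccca
Kdr: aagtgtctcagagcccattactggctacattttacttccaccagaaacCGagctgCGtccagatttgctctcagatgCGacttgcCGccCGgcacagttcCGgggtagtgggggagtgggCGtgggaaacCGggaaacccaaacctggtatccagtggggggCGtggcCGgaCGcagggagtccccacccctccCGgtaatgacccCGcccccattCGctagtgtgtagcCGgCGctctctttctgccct
Stab2: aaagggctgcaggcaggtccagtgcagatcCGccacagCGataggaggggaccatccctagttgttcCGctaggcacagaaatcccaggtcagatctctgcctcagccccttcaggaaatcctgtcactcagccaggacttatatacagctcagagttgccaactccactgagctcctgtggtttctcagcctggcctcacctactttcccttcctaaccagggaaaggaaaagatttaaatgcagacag
Clec4f: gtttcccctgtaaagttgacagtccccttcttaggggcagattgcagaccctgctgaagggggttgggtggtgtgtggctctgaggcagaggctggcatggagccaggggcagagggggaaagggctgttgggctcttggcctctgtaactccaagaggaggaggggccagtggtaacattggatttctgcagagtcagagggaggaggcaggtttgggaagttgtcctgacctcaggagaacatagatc
These runs hold 37 CpG in Reln (chr5:22344706-22344955), 18 in Lrat (chr3:82903975-82904224), 16 in Kdr (chr5:75978456-75978705), 3 in Stab2 (chr10:87007943-87008192) and 0 in Clec4f (chr6:83656117-83656366).

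Over the 300 bases from 250 before to 50 after the start, the ratio of observed to expected CpG was 1.01 in Reln, 0.777 in Lrat and 0.689 in Kdr, and 0.286 in Stab1, 0.192 in Stab2, 0.0680 in Lyz2 and 0 in Clec4f. Within 1 kb the densities of the first 3 genes stood in the order of this ratio, but within 2.5 kb Kdr was above Lrat, and Clec4f, with the lowest ratio, had the highest 1 kb density of the other 4. Across 17491 start sites, Spearman's rho between the ratio and the start density within 1 kb was 0.553, 0.481 and 0.607 in experiments 1, 2 and 3, given as a description across genes that share libraries and base composition. With start sites divided at a ratio of 0.6, a division chosen after the values were seen, the 8464 CpG-rich starts had a median relative density of 4.10 and the 9027 CpG-poor starts 1.14. Within its own class, Reln was at percentile 60.0, Lrat at 47.0 and Kdr at 44.5, while among CpG-poor starts Clec4f was at 80.5, Stab1 at 57.0, Stab2 at 47.8 and Lyz2 at 28.8. The 3 markers whose interval lay above 1 within 2.5 kb of the start were therefore near the middle of CpG-rich starts. Clec4f, a CpG-poor start whose interval within 1 kb (1.09 to 4.19) also lay above 1, stood higher in its own class. Hepatocyte genes showed another arrangement, with a median of 26.4 at 15 CpG-poor starts. CpG-rich starts of 4 genes not expressed in liver (Gad1, Grin1, Neurod1 and Olig2) had a median of 1.14, below the values at Reln, Lrat and Kdr. The CpG-rich starts of the further markers of the same cells had medians below those 3 values, 2.05 at 4 endothelial and 2.28 at 4 stellate starts. Single starts could be higher: the endothelial gene Ehd3 (4.10) lay above Lrat and Kdr.

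**Figure D3:**
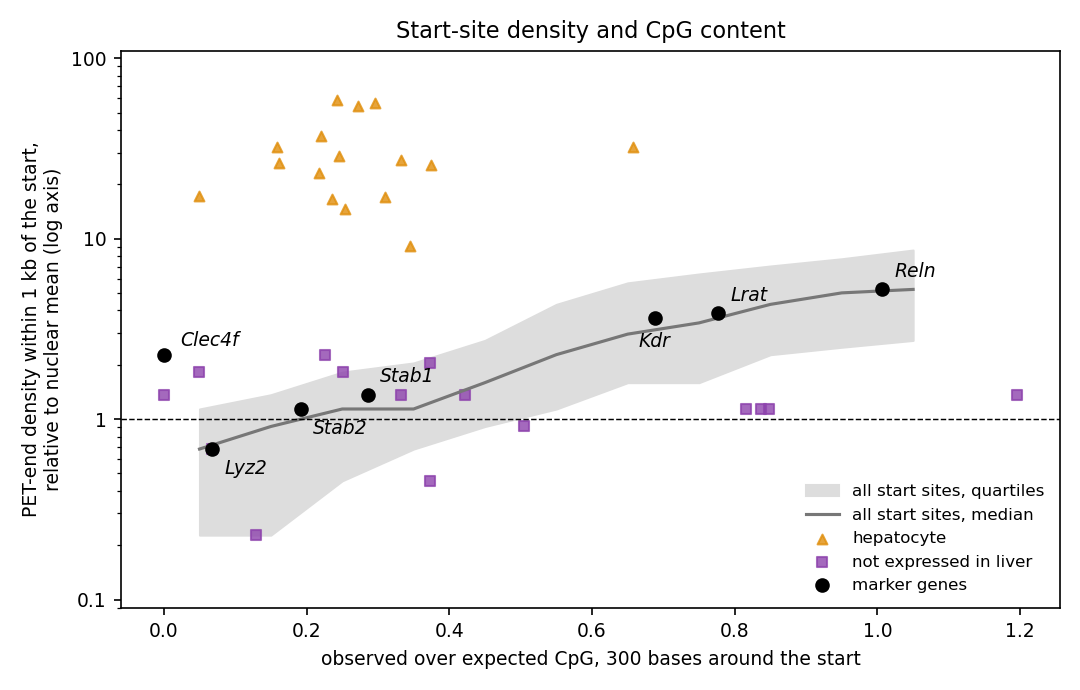
Start-site density within 1 kb (relative to the nuclear mean, log axis) against the observed over expected CpG of the 300 bases around the start, with the median and quartiles of all start sites in steps of CpG ratio, the last step holding all values above 1.0. Reln, Lrat and Kdr lie close to the median of starts of like CpG content, and the hepatocyte starts lie far above it at low CpG ratios.

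Short motifs were searched on both strands of the same 300 bases. The GC box GGGCGG occurred 6 times in Reln, 2 times each in Kdr and Lrat and 0 times in Stab1, Stab2, Clec4f and Lyz2, and 46.3% of all promoters held it. The ETS letters CCGGAA occurred once each in Kdr and Reln, and in 19.1% of all promoters. GAGGAA, the core bound by PU.1 and other ETS factors, occurred once in Stab1, and 27.5% of all promoters held it. TATAAA (13.3% of promoters), AGATAA (9.94%) and TGACTCA (4.57%) had no match in any of the 7. These matches describe letters and do not show binding.

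PETs with ends within 8 kb of each other are usually taken to come from a single stretch of captured chromatin, so they were also counted on their own. Over the 4 endothelial markers they had relative densities of 1.38 (0.828 to 2.15), 0.345 (0.0941 to 0.884) and 1.94 (1.32 to 2.75) in experiments 1, 2 and 3. Kdr held 7, 1 and 5 such PETs, with a density of 3.20 (1.29 to 6.59) in experiment 1. Stab2 held 8, 2 and 14. The 3 macrophage markers together held 0 ends of such PETs in experiment 1, 2 in experiment 2 and 12 in experiment 3. With the ends of all protein-coding genes added together, not as a median over genes, the relative density of these PETs was 1.65, 1.39 and 1.42. The endothelial interval held that value in experiments 1 and 3 and lay below it in experiment 2. Added together in the same way, the hepatocyte list had 69.8, 17.9 and 14.3, and the genes not expressed in liver had 0.665, 1.18 and 0.990.

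Long-range PETs of the marker genes were few. Counting PETs on the same chromosome with ends 8 kb to 1 Mb apart, the 10 genes had 7, all of them at endothelial markers. Stab2 had 3, among them 1 from position 86848926 to Ttc41 (93.7 kb, experiment 1) and 1 within Stab2 (9.1 kb, experiment 3). Pecam1 had 1 to Scn4a (373 kb, experiment 2) and 1 within the gene (21.1 kb, experiment 3). Stab1 had 1 to Pbrm1 and Smim4 (56.7 kb) and 1 to Nisch (14.3 kb), both in experiment 3. Each pair of places was joined by a single PET. Among genes with a like number of ends, 55.0% of those set beside Stab2 had at least 1 such PET, 40.5% of those beside Pecam1 and 24.5% of those beside Stab1. Kdr had 0, where 44.0% of such genes had at least 1. Reln had 0, although genes with a like number of ends had a median of 1 and 73.0% of them had at least 1. Few were to be found at the rest by that measure. Lyz2, Clec4f, Cd74, Lrat and Dcn had 0, where 1.5%, 12.5%, 12.5%, 17.0% and 32.5% of genes with a like number of ends had at least 1.

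Between experiments, which differ in pool and depth and, for experiment 2 against the others, in crosslinker, 3 differences were called among the marker genes (two-sided exact binomial test, adjusted over all protein-coding genes). Reln was lower in experiment 1 than in experiment 2 (ratio 0.805, 0.678 to 0.951, adjusted p = 0.04399, exact binomial test), against 3.64% of all genes called lower and 20.0% called higher. Stab2 was higher in experiment 3 than in experiment 2 (1.50, 1.21 to 1.86, adjusted p = 0.003393, exact binomial test), against 13.7% called higher and 1.9% called lower. Stab1 was lower in experiment 1 than in experiment 3 (0.307, 0.125 to 0.657, adjusted p = 0.01457, exact binomial test), against 2.78% called lower and 7.04% called higher. Cd74 had a ratio of 2.47 (1.25 to 5.00) in experiment 3 against experiment 2 (adjusted p = 0.05106, exact binomial test). The median ratio of the 10 markers was 0.708 for experiment 1 against 2, 1.32 for experiment 3 against 2 and 0.673 for experiment 1 against 3, the pair with the same crosslinkers. The same medians were 1.16, 1.25 and 0.981 for all protein-coding genes and 7.56, 1.78 and 4.28 for the hepatocyte list. The calls compare pools of chromatin, and with dual crosslinking in 2 experiments and single crosslinking in 1, crosslinker and experiment cannot be told apart.

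Further markers of the same cells were counted to set the 10 genes beside more members of each type. Of 24 other sinusoidal endothelial genes, 7, 6 and 16 were called higher in experiments 1, 2 and 3 and 0 lower, with medians of 1.45, 1.21 and 1.69. Of all protein-coding genes 26.9%, 16.6% and 36.7% were called higher, and of the length neighbours of these 24 genes 27.75%, 18.4% and 39.98%, so the counts in experiments 1 and 2 were near the background. Their highest was Egfl7, a secreted endothelial factor (4.31, experiments together, in a window that also holds Agpat2), and their lowest was the angiopoietin receptor gene Tek (0.970, with Eqtn in its window). Of 24 other macrophage genes, 6, 4 and 9 were called higher and 2, 4 and 3 lower, with medians of 1.32, 0.994 and 1.57, and the counts called higher were near the share over all genes in each experiment. Cd68, a lysosomal glycoprotein of macrophages, was highest (3.67, with Mpdu1 and Eif4a1 in its window), and the complement receptor gene Vsig4 was lowest (0.293). Vsig4 is on the X chromosome, whose genes had median relative densities of 0.464, 0.465 and 0.482. Of 24 other stellate and fibroblast genes, 3, 5 and 8 were called higher and 0 lower, with medians of 1.11, 1.26 and 1.29, beside 29.77%, 16.0% and 40.69% of their length neighbours called higher. The angiopoietin-like gene Angptl6 was highest (3.18, with Shfl in its window), and the matrix proteoglycan gene Lum was lowest (0.746).

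These lists can be read beside 22 genes listed as not expressed in liver, of which 0, 2 and 2 were called higher (26.9%, 16.6% and 36.7% of all genes), with medians of 0.861, 1.17 and 1.21. That list was set by name, and its silence in each liver cell type was not tested. It holds Gfap, also used as a marker of stellate cells, which was its highest gene in experiment 2 (1.58). The 10 marker genes had medians of 0.843, 1.16 and 1.40. In experiments 1 and 2 the medians of the marker genes and of the genes not expressed in liver thus differed by little. Of the 3 marker groups the macrophage markers were farthest from those genes in experiments 1 (median 0.574) and 2 (1.01), and the endothelial markers in experiment 3 (1.53). The difference between the lists was not tested.

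**Figure D4:**
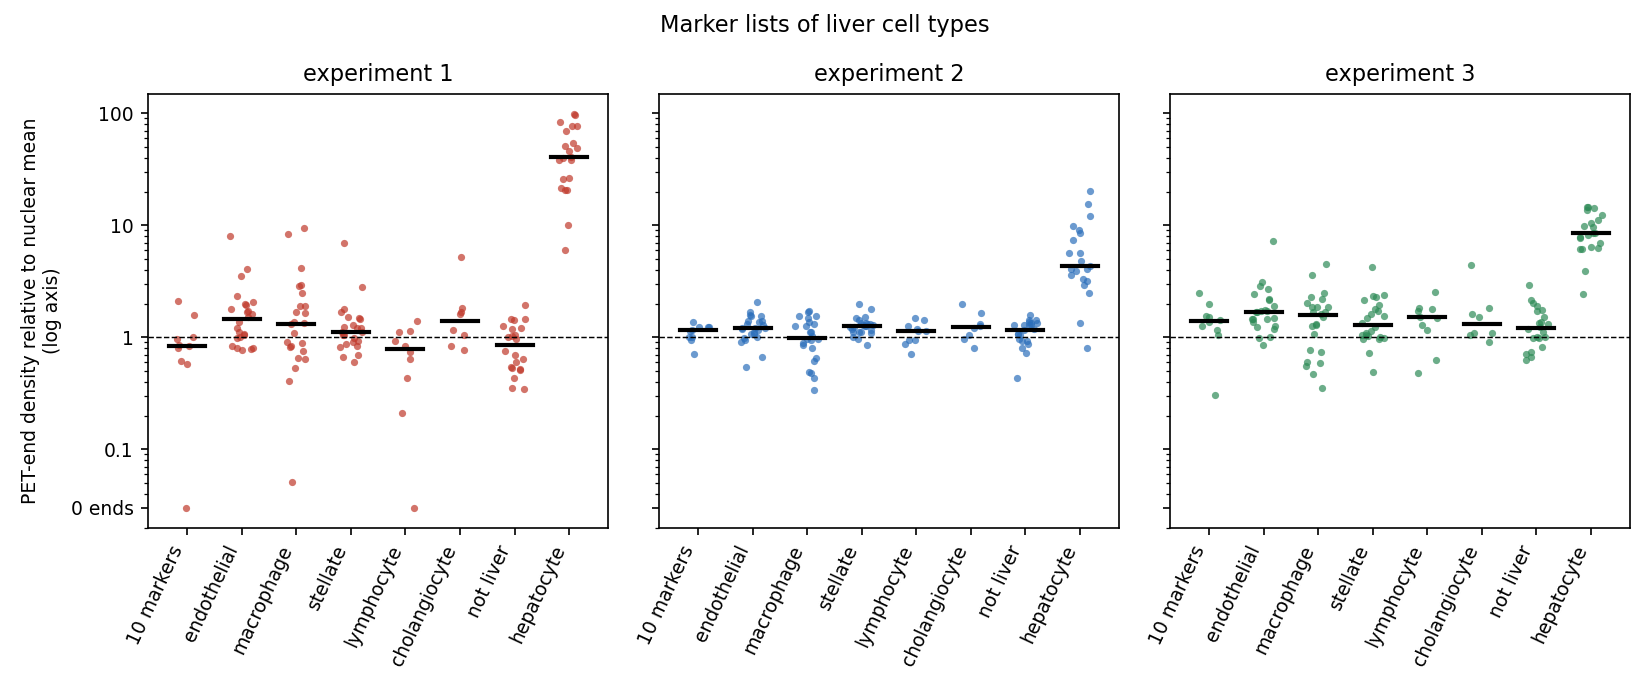
Relative density of each gene in the marker lists (log axis), by experiment, with the median of each list as a bar; genes with 0 ends are drawn at the foot. The hepatocyte list lies well above the nonparenchymal lists, with medians of 40.3, 4.35 and 8.54. Values of the nonparenchymal lists and of the genes not expressed in liver overlap. Medians of the further endothelial, macrophage and stellate lists were 1.45, 1.32 and 1.11 in experiment 1, against 0.861 for genes not expressed in liver. They were 1.21, 0.994 and 1.26 in experiment 2, against 1.17, and 1.69, 1.57 and 1.29 in experiment 3, against 1.21.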

How the data were processed

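The deposited table lists 1 PET per row, with the experiment and, for each end, its chromosome, position and linker letters. The authors' deposited values used here are positions in base pairs, not normalized, and they pool all libraries of an experiment. Bowtie2 and mm10 are named in the submitters' processing notes. For filters, duplicate removal and reads that match several places, the steps taken were not given in the sources used here. PETs with a mitochondrial end were dropped.

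Ends were counted over each protein-coding gene of the RefSeq GRCm38.p6 gene table and 2.5 kb either side, in Python 3.11.15 with pandas 2.3.3 and SciPy 1.17.1. The expected number came from the mean over 10 kb bins that held at least 1 end, and the two-sided exact Poisson and exact binomial tests were adjusted by the Benjamini-Hochberg method over all genes tested, with a call at an adjusted p under 0.05. These tests treat ends as independent, although the ends of a PET within 8 kb come in pairs. The tests were tried on simulated data drawn as independent Poisson counts, which hold no paired ends and so cannot show their effect. For a gene with several promoter entries, the start nearest the gene's boundary was used.

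The 10 genes and all gene lists were chosen with earlier results of these data known. The genes named are all 10 markers, the highest and lowest gene of each further list, genes overlapping a marker's window, and the partners of long-range PETs. The partner of 1 long-range PET is not reported here. Alternatives covered the flank, the reference density, duplicates, linkers, PET distance and each experiment left out.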

Additional observations from a re-analysis of the deposited data

How the results depend on the processing

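The counts of marker genes called moved with the reference density and with the linker. With the mean of protein-coding windows as reference, an alternative chosen after seeing the data, 0 were called above it with the experiments together, 2 in experiment 3, and 3 and 1 below it in experiments 1 and 3. The median of experiment 3 became 1.12, and Reln turned below 1, at 0.767 in experiment 1, 0.841 in experiment 3 and 0.971 together. With the median of the 10 kb bins within 250 kb as reference, Stab2 in experiment 1 turned from 0.968 to 1.83, 4 genes were called above in experiment 1, 2 above and 0 below together. In experiment 1, 1 gene (Kdr) was called above with no flank, a 1 kb flank, near-duplicates collapsed, unshared read positions alone, or the first linker alone. The first linker alone gave 0, 1 and 2 above in experiments 2, 3 and together. The second linker alone gave 3 in experiment 3 and 1 together, and PETs within 8 kb left out, also chosen after seeing the data, gave 2 in experiment 3. The call of Lyz2 below the mean was lost (0 genes) with no flank, a 1 kb flank, the second linker alone and PETs within 8 kb left out. With each experiment left out in turn, 2 to 5 genes were called above and 0 to 1 below. Apart from the shares given in the Results, the share of all genes called under these alternatives is not given here. Such counts therefore cannot be set against a background. Within 1 kb in place of 2.5 kb the median start density was 2.28, against 1.37, and a limit of 2 Mb gave 11 long-range PETs, against 7. Of 153 such alternative values, 125 were classed as the same and 28 as moved. The first class let some shifts pass, such as 5 to 6 genes called in experiment 3 with the local reference. It also held the median of experiment 2 with the first linker alone, 0.983 against 1.16. Of the values of single genes, 445 were classed as the same, 40 as weaker, 21 as stronger and 4 as reversed. No paired analysis was possible because the deposited table does not separate libraries, so the replicate numbers in the labels name no column. The small number of ends limits the shorter genes most: Lyz2 had 10 ends in all and Clec4f, Cd74 and Lrat under 50.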

Other observations

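Markers of cell types outside the 10 genes were measured in the same windows. Of 8 cholangiocyte genes, 2, 3 and 3 were called above the nuclear mean in experiments 1, 2 and 3, with medians of 1.39, 1.23 and 1.31 (two-sided exact Poisson test, adjusted over all protein-coding genes). Of all genes 26.9%, 16.6% and 36.7% were called, so the counts in experiments 1 and 3 were near that background. Sox9, a transcription factor of bile duct cells, was the highest of them with the experiments together (relative density 3.28, 2.59 to 4.11), and Tspan8 the lowest (1.03, 0.823 to 1.27). Of 10 lymphocyte genes, 0, 0 and 2 were called, with medians of 0.783, 1.14 and 1.52, beside the same background. The B-cell receptor gene Cd79a was the highest (1.80, 1.27 to 2.48), in a window that also holds Arhgef1, and Ncr1, a receptor of natural killer cells, was the lowest (0.840, 0.532 to 1.26). Among genes not expressed in liver, Olig2, a transcription factor of oligodendrocytes, was the highest (1.79, 1.23 to 2.53), and Ins2, an insulin gene, was the lowest (0.60, 0.259 to 1.18). In the hepatocyte list the range ran from Apoh (2.19, 1.81 to 2.63) to Pck1, the enzyme phosphoenolpyruvate carboxykinase (30.2, 28.0 to 32.4).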
